A study of Mus musculus with 18 samples.

Results

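The 33 genes described here encode the enzymes and carriers of fatty acid oxidation and of ketone body metabolism, together with 4 genes that respond to fasting. They were taken as a list of named pathway genes, and all 33 were found among the 23904 gene names of the tables. RNA came from male C57BL/6 offspring at 3 weeks of age, with 6 samples each of gonadal fat, hypothalamus and liver. In each tissue 3 samples were from offspring of dams given bisphenol A (BPA), an estrogenic plastics chemical, in corn oil by gavage at 5 mg/kg per day from day 1 to day 20 after conception. The other 3 were from offspring of dams given the corn oil vehicle alone. Vehicle offspring came from 3 litters and BPA offspring from 4 litters, per the labels' protocols, and no genotype other than the strain is given. The study asked what prenatal BPA does to each tissue. The column headings name a tissue and a number that occurs in no label, so BPA and vehicle could not be compared, and the question here is how the pathway differs between the tissues. Each set of 6 columns therefore mixes both treatments in an order that is not known, and any effect of treatment is part of the spread within a tissue.

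Fatty acids enter mitochondria as acyl-carnitines, through the carnitine shuttle, and are then shortened step by step in a spiral that passes electrons to the respiratory chain and releases acetyl-CoA. Peroxisomes shorten very long and branched chains by a parallel route. Liver turns surplus acetyl-CoA into ketone bodies and exports them, and brain and other tissues turn them back into acetyl-CoA. Suckling mice live on milk fat, and many of these genes are known targets of PPARα, a nuclear receptor that binds fatty acids.

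Levels are FPKM, fragments per kilobase of transcript scaled to the mapped total, as deposited and summed here over the transcript models of a gene. FPKM is per length, so genes can be set side by side within a table. The 3 tissues were assembled as separate tables, and whether they were normalized together is not stated in the sources used here, which limits every level set across tissues. Summed FPKM per column was 160673 to 203899 in adipose, 226477 to 244432 in hypothalamus and 278848 to 316741 in liver, and the depth per sample is unknown. Differences between tissues were tested with limma on log2(FPKM + 1), a scale that understates the change of low genes. A gene was called at a Benjamini-Hochberg adjusted p below 0.05 over the 12766 genes tested and a difference of at least 1 on the log2 scale. Nothing says which columns came from separate animals or litters, so p-values measure only the spread between these samples. Lack of overlap between tissues is given as description only, since its share over all genes was not computed.

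The summed level of 6 adipocyte markers was 3853 to 9639 FPKM in adipose and at most 12.5 FPKM elsewhere. Hypothalamic neuropeptide genes summed to 451 to 853 FPKM in hypothalamus and at most 2.40 FPKM in the other tissues. The list of 4 astrocyte markers was not specific, with a median of 258 FPKM in liver and 208 FPKM in hypothalamus, although Gfap among them was listed at 0 in liver. Some columns stood apart. In adipose, columns 03, 10 and 41 held 1908, 903 and 1387 FPKM summed over 8 genes that mark epididymis or male gonad, against at most 0.206 FPKM in the other 3. Liver column 28 held 9784 FPKM of 6 hepatocyte markers against 39350 to 51985 FPKM in the others. Most of that gap lay in Alb, at 1112 FPKM there against 30775 to 41280 FPKM in the other liver columns. Hypothalamus column 03 held 677 FPKM of the same list against 32.7 to 79.8 FPKM. Alb was at 24.3 FPKM in that column, within the 22.4 to 60.3 FPKM of the other hypothalamus columns, so the higher sum came from other genes of the list. Without the 3 adipose columns, 18 of the 29 genes tested were higher and 2 lower in liver than in adipose, against 21 and 3 with them. The part of these markers in any result was not tested. In tissue RNA, fewer cells of a type and less RNA per cell cannot be told apart.

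A pair of loci bear on the results, and their sequences are shown first. The first locus is the region between the starts of Hadha and Hadhb on chromosome 5, the genes of the α and β subunits of the mitochondrial trifunctional protein, which carries out the later steps of the spiral on long chains. The 300-base windows that RefSeq (GRCm38.p6) gives around their starts lie head to head and share 228 bases. Of all 32851 windows, 10.8% overlapped one of another gene on the opposite strand, against 4 of 29 windows of the listed genes (13.8%). The bases between the RefSeq starts, chr5:30154981-30155252 on the plus strand, are given with each CG dinucleotide, the site of DNA methylation, in capitals.
Hadha to Hadhb: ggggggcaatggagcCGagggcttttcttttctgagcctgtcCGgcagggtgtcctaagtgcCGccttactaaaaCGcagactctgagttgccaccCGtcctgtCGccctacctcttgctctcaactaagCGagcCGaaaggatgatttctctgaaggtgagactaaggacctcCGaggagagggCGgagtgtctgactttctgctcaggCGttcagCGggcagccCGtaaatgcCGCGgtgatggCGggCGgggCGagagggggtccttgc

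The second locus is Bdh1 on chromosome 16, the gene of 3-hydroxybutyrate dehydrogenase, which interconverts the ketone bodies acetoacetate and 3-hydroxybutyrate. Its RefSeq models begin at 2 sites that lie 6456 bases apart on the plus strand. The FPKM of liver and hypothalamus was assigned to models with different starts, as described further on. The 250 bases before each start are shown for comparison, again with CG dinucleotides in capitals, at chr16:31422047-31422296 for the upstream and chr16:31428503-31428752 for the downstream start.
Bdh1 upstream: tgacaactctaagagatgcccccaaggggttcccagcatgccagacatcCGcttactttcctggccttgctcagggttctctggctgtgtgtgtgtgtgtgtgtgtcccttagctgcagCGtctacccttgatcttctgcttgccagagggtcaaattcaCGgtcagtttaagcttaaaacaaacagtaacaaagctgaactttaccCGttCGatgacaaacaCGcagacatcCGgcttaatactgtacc
Bdh1 downstream: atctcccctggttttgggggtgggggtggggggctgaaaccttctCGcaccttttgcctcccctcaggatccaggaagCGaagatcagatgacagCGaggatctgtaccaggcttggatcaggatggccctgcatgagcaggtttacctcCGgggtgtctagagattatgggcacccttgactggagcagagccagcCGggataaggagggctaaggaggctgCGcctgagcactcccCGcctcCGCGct
The upstream stretch holds 7 CG dinucleotides at 49.6% G and C, and the downstream stretch 9 at 60.8%, against a median of 6 over all windows.

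Most of the genes tested were higher in liver than in hypothalamus, and more were higher than lower in liver against adipose. Of the 33 genes, 29 passed the filter of at least 1 FPKM in 6 of the 18 columns. Of these, 21 were higher and 3 lower in liver than in adipose, where 12.8% of all genes were called higher and 22.9% lower. Against hypothalamus, 25 were higher and 2 lower in liver, beside 13.1% and 48.4% of all genes. In adipose 18 were higher and 3 lower than in hypothalamus, beside 13.1% and 38.3% of all genes. The median difference of the 29 was 1.79 on the log2 scale for liver minus adipose, 3.31 for liver minus hypothalamus and 1.52 for adipose minus hypothalamus. Over all genes these medians were -0.20, -0.94 and -0.62. Scaling each column to a common upper quartile moved the last 2 by 0.68 and 0.63, and the share of calls that were higher rose from 21.3% to 39.3% and from 25.5% to 49.0%. Quantile normalization, which keeps only ranks within a column, left 14 of the 29 higher in liver than in adipose, with a median of 0.98 on the log2 scale, and 26 higher than in hypothalamus.

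**Figure D1:**
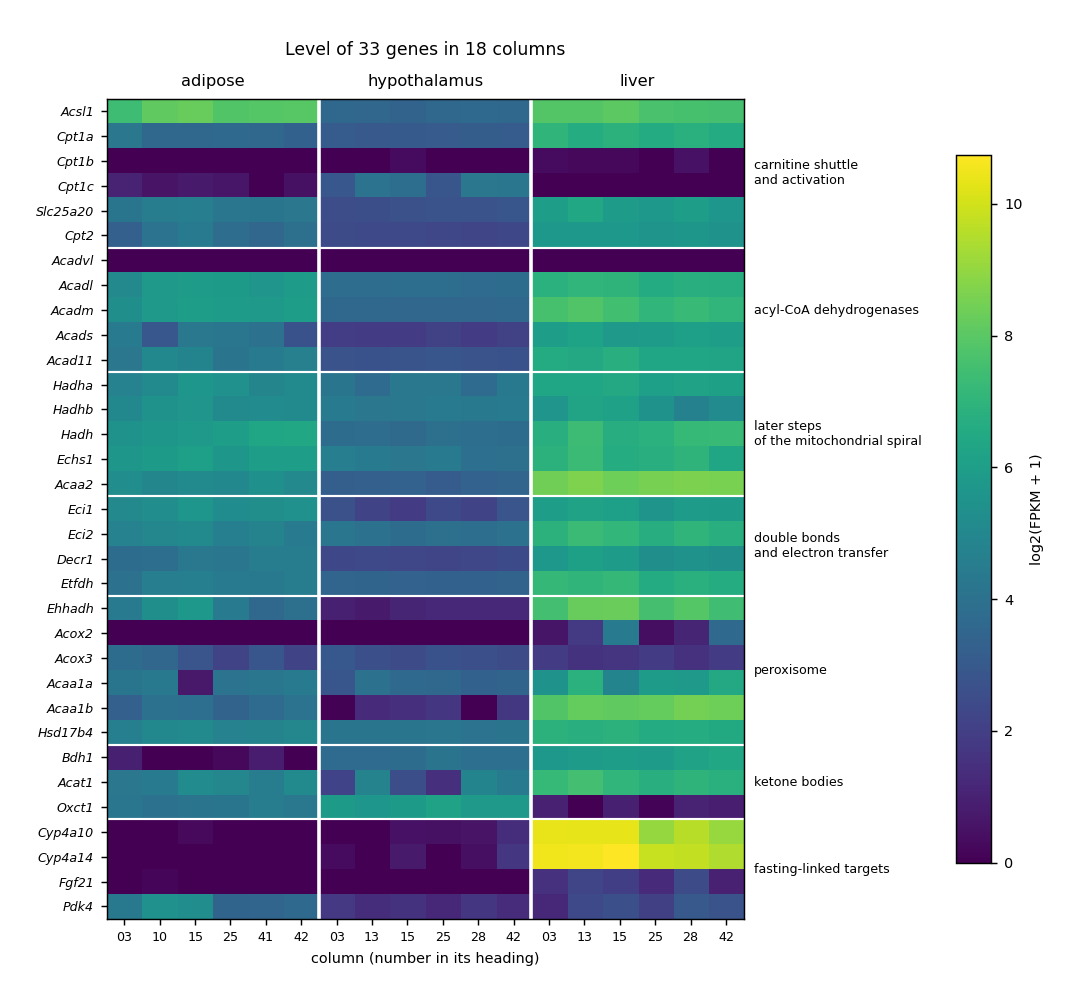
Heat map of log2(FPKM + 1) for the 33 genes, in rows by role, in the 6 columns of each tissue, headed by the numbers of the deposited headings. Most rows are brightest in liver, Cpt1c and Oxct1 are brightest in hypothalamus, and Acadvl is at 0 in all 18 columns.

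Of the 4 genes that did not pass, Acadvl, the very long chain acyl-CoA dehydrogenase, was listed at 0 in all 18 columns. Vcp was also listed at 0 throughout and Eef1a1, a translation factor that all cells use, in 17 columns, so a 0 in these tables can be a failed estimate. Cpt1b, the muscle form of carnitine palmitoyltransferase 1, was listed at 0 in all adipose columns and in 5 hypothalamus columns, with 0.234 FPKM in column 15. Its liver columns held 0.256, 0.186, 0.186, 0, 0.451 and 0 FPKM. Acox2 and Fgf21 reached 1 FPKM in 4 and 5 liver columns and in no other column. Of the genes that passed, Cpt1c, Cyp4a10 and Cyp4a14 did so through the 6 columns of 1 tissue and at most 1 column elsewhere, so they had to differ, and their p-values are not given. Without these 3, 19 of 26 genes were higher and 3 lower in liver than in adipose, 23 higher and 1 lower in liver than in hypothalamus, and 18 higher and 2 lower in adipose than in hypothalamus.

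Among the genes of fatty acid activation and the carnitine shuttle, Cpt1a, Slc25a20 and Cpt2 were highest in liver, Acsl1 was high in both adipose and liver, and Cpt1c was highest in hypothalamus. Acsl1, which activates fatty acids by joining them to CoA, was at 170, 280, 305, 223, 237 and 248 FPKM in adipose columns 03, 10, 15, 25, 41 and 42. Liver columns 03, 13, 15, 25, 28 and 42 held 230, 236, 258, 203, 196 and 189 FPKM, and hypothalamus columns of the same numbers 11.1, 10.6, 9.58, 11.0, 11.7 and 11.4 FPKM. Adipose and liver overlapped, and both lay above every hypothalamus column. The difference of liver minus adipose was -0.14 ± 0.12 (SE) on the log2 scale, which did not pass the test (limma, adjusted p = 0.32). Adipose minus hypothalamus was 4.34 ± 0.12 (limma, adjusted p = 1.5e-16), the largest difference of the shuttle genes.

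Carnitine palmitoyltransferase 1 joins the acyl chain to carnitine and sets the pace of oxidation. Cpt1a, its liver form, was at 129, 98.6, 119, 95.3, 113 and 95.4 FPKM in liver columns 03, 13, 15, 25, 28 and 42. It was at 18.2, 11.0, 10.9, 11.6, 11.4 and 9.12 FPKM in adipose columns 03, 10, 15, 25, 41 and 42, and at 7.73, 7.06, 7.24, 7.56, 8.05 and 7.85 FPKM in hypothalamus. The 3 tissues did not overlap, and adipose column 03 stood above the other adipose columns. Liver exceeded adipose by 3.09 ± 0.12 on the log2 scale (limma, adjusted p = 8.8e-14), or 8.99-fold in mean FPKM. Adipose minus hypothalamus was 0.57 ± 0.12, which fell short of the fold required.

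Cpt1c, the brain form, which sits in the endoplasmic reticulum, had the reverse order. Its hypothalamus columns 03, 13, 15, 25, 28 and 42 held 6.62, 16.2, 13.7, 6.38, 17.9 and 17.6 FPKM, spread over 9 models. Adipose held 1.07, 0.496, 0.736, 0.556, 0 and 0.384 FPKM, and all 6 liver columns were listed at 0. Columns 03 and 25 of the hypothalamus were low, yet no adipose column reached them. In these columns Cpt1a, at 7.73 and 7.56 FPKM, was above Cpt1c, and in the other 4 it was below.

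The carrier and the inner enzyme followed Cpt1a. Slc25a20, the carnitine-acylcarnitine carrier of the inner membrane, had medians of 60.1 FPKM in liver, 18.1 FPKM in adipose and 5.54 FPKM in hypothalamus. Cpt2, which returns the chain to CoA on the inner side, had medians of 50.8, 13.9 and 4.09 FPKM in the same order. Neither gene overlapped between any pair of tissues, and both were called in all 3 comparisons, though Slc25a20 against adipose fell to 0.98 under quantile normalization. The share of all genes called in all 3 was not computed. Liver minus hypothalamus was 3.25 ± 0.12 for Slc25a20 and 3.31 ± 0.14 for Cpt2 on the log2 scale.

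The acyl-CoA dehydrogenases each start the spiral on chains of a given length. All 4 tested genes were called higher in liver than in adipose and hypothalamus, and higher in adipose than in hypothalamus. Of all genes, 12.8%, 13.1% and 13.1% were called higher in these comparisons, and the share called in all 3 was not computed. Acads, for short chains, differed most between tissues. It was at 64.4, 73.5, 53.2, 58.8, 66.0 and 61.6 FPKM in liver columns 03, 13, 15, 25, 28 and 42. Adipose columns 03, 10, 15, 25, 41 and 42 held 20.4, 6.47, 18.5, 17.7, 15.7 and 5.54 FPKM. Hypothalamus held 2.88, 2.63, 2.73, 3.24, 2.72 and 3.40 FPKM. The tissues did not overlap, and adipose columns 10 and 42 stood below the other adipose columns. Liver minus hypothalamus was 4.02 ± 0.25 on the log2 scale (limma, adjusted p = 1.9e-11).

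Acadm, for medium chains, had medians of 164, 56.2 and 11.1 FPKM in liver, adipose and hypothalamus. Acadl, for long chains, had 112, 55.2 and 13.4 FPKM. Acad11, a long chain member of the family, had 85.5, 22.3 and 5.71 FPKM. Liver minus adipose was 1.58 ± 0.13 for Acadm, 1.14 ± 0.13 for Acadl and 1.91 ± 0.13 for Acad11 on the log2 scale. The call of Acadl against adipose was narrow: without adipose columns 03, 10 and 41 its difference was 0.91, and quantile normalization gave 0.14. Under that normalization Acadm, at 0.54, also fell below the fold required.

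**Figure D2:**
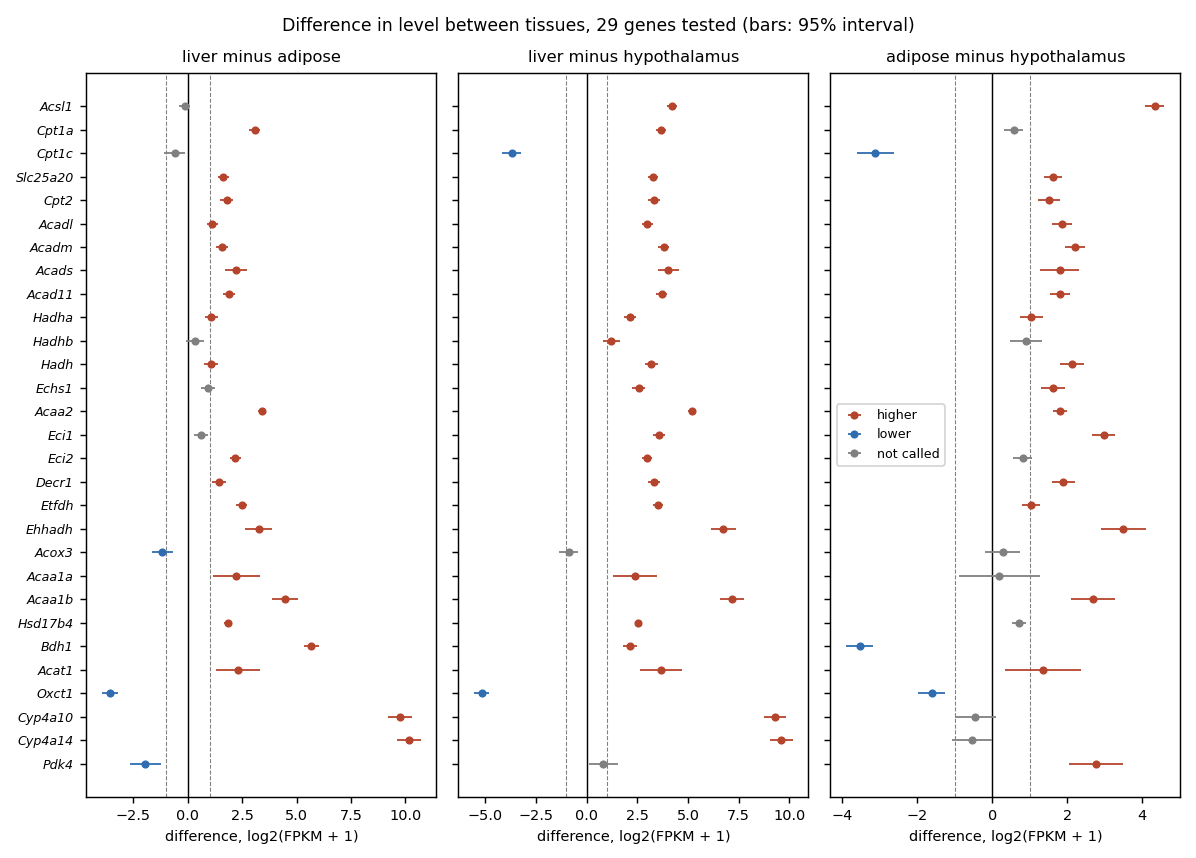
Differences in log2(FPKM + 1) between tissues for the 29 genes tested, with 95% intervals from limma (dashed lines at 1 and -1, colours for called higher, called lower and not called). Most genes lie to the right in all 3 panels, while Cpt1c, Bdh1 and Oxct1 lie to the left where adipose is compared with hypothalamus.

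Of the later mitochondrial steps, Acaa2, the thiolase that releases acetyl-CoA, differed most. It was at 339, 406, 333, 373, 390 and 379 FPKM in the 6 liver columns in the order of their numbers. Adipose held 37.4, 29.8, 34.3, 31.2, 41.4 and 32.3 FPKM, and hypothalamus 8.56, 8.88, 9.43, 7.83, 9.54 and 10.5 FPKM. The spread within each tissue was small beside the distance between them. Liver minus adipose was 3.39 ± 0.09 on the log2 scale (limma, adjusted p = 1.9e-16) and liver minus hypothalamus 5.20 ± 0.09 (limma, adjusted p = 7.9e-20).

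The 2 genes that share a start region had different calls between liver and adipose. Hadha was at 65.7, 74.9 and 87.5 FPKM in liver (lowest, median and highest), 26.3, 33.6 and 49.1 FPKM in adipose and 12.4, 18.1 and 19.4 FPKM in hypothalamus. Hadhb was at 25.7, 46.0 and 77.1 FPKM in liver, 31.2, 34.8 and 47.1 FPKM in adipose and 18.3, 19.7 and 20.6 FPKM in hypothalamus. Hadhb of liver and adipose overlapped, whereas Hadha of no pair of tissues did. Liver minus adipose was 1.09 ± 0.15 for Hadha (limma, adjusted p = 3.9e-06) and 0.32 ± 0.20 for Hadhb (limma, adjusted p = 0.16), and the difference between these differences was not tested.

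Each of these calls had a limit. Hadha against adipose gave 0.26 under quantile normalization and 0.86 without adipose columns 03, 10 and 41. Against hypothalamus, Hadha of adipose was higher by 1.05 ± 0.15, and by 0.95 to 0.99 without adipose column 15 or 25 or hypothalamus column 13 or 28. Hadhb was higher in liver than in hypothalamus by 1.22 ± 0.20 (limma, adjusted p = 1.6e-05), but by 0.23 in the authors' gene table (limma, adjusted p = 0.29). Over the 6 liver columns the log2 levels of the pair had a Pearson r of 0.70 (exact permutation p = 0.13, adjusted p = 0.25) and a Spearman rho of 0.71 (exact permutation p = 0.14, adjusted p = 0.34), with r = 0.79 without columns 15 and 25.

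Hadh, which oxidizes the hydroxyacyl form of shorter chains, had medians of 132, 59.5 and 13.2 FPKM in liver, adipose and hypothalamus. Echs1, the hydratase before it, had 113, 59.2 and 19.1 FPKM. For both, no pair of tissues overlapped. Liver minus adipose was 1.07 ± 0.15 for Hadh and 0.94 ± 0.15 for Echs1, on either side of the fold required. The Hadh difference was 0.97 without adipose column 03, 1.00 without liver column 13 and 0.05 under quantile normalization.

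The enzymes that handle double bonds, and the exit of electrons, followed the same order. Eci1, an isomerase for unsaturated chains, had the largest difference of this role, between liver and hypothalamus. It was at 62.8, 73.0, 65.8, 46.7, 59.0 and 56.0 FPKM in liver, at 32.5, 38.0, 49.4, 36.5, 39.1 and 41.8 FPKM in adipose and at 5.41, 3.54, 2.74, 4.14, 3.63 and 6.09 FPKM in hypothalamus, in the order of the column numbers. Liver and adipose overlapped, and both lay far above hypothalamus. Liver minus hypothalamus was 3.57 ± 0.15 on the log2 scale (limma, adjusted p = 4.2e-14), and liver minus adipose 0.60 ± 0.15, below the fold required.

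Eci2, a second isomerase found in mitochondria and peroxisomes, had medians of 123, 26.3 and 14.7 FPKM in liver, adipose and hypothalamus. Decr1, the dienoyl-CoA reductase, had 47.6, 18.3 and 3.99 FPKM. Etfdh, which passes the electrons of the dehydrogenases to ubiquinone, had 122, 21.8 and 9.50 FPKM. None of the 3 overlapped between tissues. All were called higher in liver than in both other tissues, beside 12.8% of all genes against adipose and 13.1% against hypothalamus. Decr1 against adipose fell to 0.87 under quantile normalization. Adipose minus hypothalamus was 1.89 ± 0.15 for Decr1 and 1.03 ± 0.12 for Etfdh (0.99 without adipose column 15), while Eci2, at 0.81 ± 0.12, missed the fold required.

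Peroxisomal genes held both the widest differences of the spiral enzymes and a gene that went the other way. Ehhadh, the bifunctional enzyme of straight chains, was at 182, 300, 310, 190, 241 and 172 FPKM in liver columns 03, 13, 15, 25, 28 and 42. Adipose columns 03, 10, 15, 25, 41 and 42 held 20.0, 40.1, 52.2, 19.8, 11.2 and 14.5 FPKM, and hypothalamus 0.735 to 1.34 FPKM. Adipose columns 10 and 15 were the highest of their tissue and still below every liver column. Liver minus hypothalamus was 6.75 ± 0.29 on the log2 scale (limma, adjusted p = 7.5e-14), or 207-fold in mean FPKM.

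The peroxisomal thiolases Acaa1a and Acaa1b are close paralogs, and reads can be split between them, so their separate levels are uncertain. Acaa1b was at 227, 297, 281, 298, 364 and 331 FPKM in liver, 8.74, 15.0, 14.0, 9.73, 12.4 and 15.9 FPKM in adipose and 0.0398, 1.5, 1.84, 2.22, 0 and 2.31 FPKM in hypothalamus. It had the largest difference of the peroxisomal genes, 7.17 ± 0.28 on the log2 scale for liver minus hypothalamus (limma, adjusted p = 2.2e-14). Acaa1a was at 27.8 to 114 FPKM in liver and 6.41 to 14.9 FPKM in hypothalamus. In adipose it lay at 16.1 to 21.4 FPKM in 5 columns and at 0.661 FPKM in column 15, and its adipose minus hypothalamus difference, 0.18 ± 0.51, did not pass.

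Hsd17b4, the bifunctional enzyme of branched chains and bile acid precursors, had medians of 102, 28.3 and 17.1 FPKM in liver, adipose and hypothalamus, without overlap. Its liver minus adipose difference, 1.84 ± 0.09, became 0.95 under quantile normalization. Acox3, an oxidase of branched chains, was lower in liver, at 1.85 to 2.79 FPKM, than in adipose, at 3.59 to 12.9 FPKM. Hypothalamus lay at 4.44 to 6.85 FPKM, above every liver column. Liver minus adipose was -1.16 ± 0.23 (limma, adjusted p = 0.00017), but -0.67 without adipose columns 03, 10 and 41 and -0.99 without column 03 alone. It was -0.83 in the authors' gene table and -0.85 under quantile normalization, and each of these values fell short of the fold required. Acox2, an oxidase of branched chains and bile acid precursors, was listed at 0 in adipose and hypothalamus. Its liver columns held 0.535, 2.54, 20.6, 0.3, 1.19 and 11.6 FPKM, so that columns 15 and 42 carried most of it. In each of these a model of its own held most of the level, 17.7 FPKM in column 15 and 10.6 FPKM in column 42, and that model was at 0 in the other columns.

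Ketone body genes separated the tissues by direction. Bdh1 was at 52.1, 60.1, 61.6, 58.1, 71.2 and 83.8 FPKM in liver columns 03, 13, 15, 25, 28 and 42. Hypothalamus held 12.5, 12.5, 13.1, 16.6, 14.0 and 14.2 FPKM, and adipose 0.913, 0, 0, 0.174, 0.817 and 0 FPKM. The tissues did not overlap, and adipose was at or near 0. Liver minus hypothalamus was 2.13 ± 0.17 on the log2 scale (limma, adjusted p = 8.9e-10), and adipose minus hypothalamus -3.54 ± 0.17 (limma, adjusted p = 5.8e-13).

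Oxct1 joins CoA to acetoacetate, the step by which a tissue uses ketone bodies, and is known to be lacking in hepatocytes. It was at 56.3, 48.9, 56.8, 71.2, 55.5 and 54.1 FPKM in hypothalamus and at 17.7, 15.0, 16.5, 17.3, 22.5 and 18.4 FPKM in adipose. Liver columns held 0.985, 0, 0.952, 0.0845, 1.02 and 0.892 FPKM. All hypothalamus columns lay above all adipose columns, and these above all liver columns. Liver minus hypothalamus was -5.18 ± 0.17 on the log2 scale (limma, adjusted p = 1.8e-15) and liver minus adipose -3.56 ± 0.17 (limma, adjusted p = 2.0e-12). Adipose minus hypothalamus was -1.62 ± 0.17 (limma, adjusted p = 8.1e-08), but -0.78 with columns scaled to a common upper quartile and -0.89 after quantile normalization.

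So the pair had 3 arrangements. In liver Bdh1 was present and Oxct1 near 0, in adipose Oxct1 was present and Bdh1 near 0, and in hypothalamus both were present. Within hypothalamus their log2 levels had a Pearson r of 0.84 (exact permutation p = 0.14, adjusted p = 0.25) and a Spearman rho of 0.31 (exact permutation p = 0.56, adjusted p = 0.70). Column 25 was the highest for both genes, and without columns 03 and 25 r was 0.59.

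Acat1, the mitochondrial acetoacetyl-CoA thiolase, which serves both the making and the use of ketone bodies, was at 106, 129 and 185 FPKM in liver (lowest, median and highest) and 18.0, 26.4 and 35.8 FPKM in adipose. Hypothalamus columns 03, 13, 15, 25, 28 and 42 held 3.41, 26.8, 5.04, 1.83, 27.6 and 21.2 FPKM. Columns 03, 15 and 25 were low and the other 3 reached into the range of adipose. The shorter of its 2 models there, which held 90.1% of the level, was at 1.83 to 2.66 FPKM in the low columns and 21.0 to 25.8 FPKM in the others. Liver was higher than both other tissues, by 2.32 ± 0.49 against adipose and 3.67 ± 0.49 against hypothalamus. Adipose minus hypothalamus, 1.35 ± 0.49 (limma, adjusted p = 0.017), fell to 0.32 in the authors' gene table, to 0.98 without hypothalamus column 25 and to an adjusted p of 0.051 with limma fitted on those 2 tissues only.

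**Figure D3:**
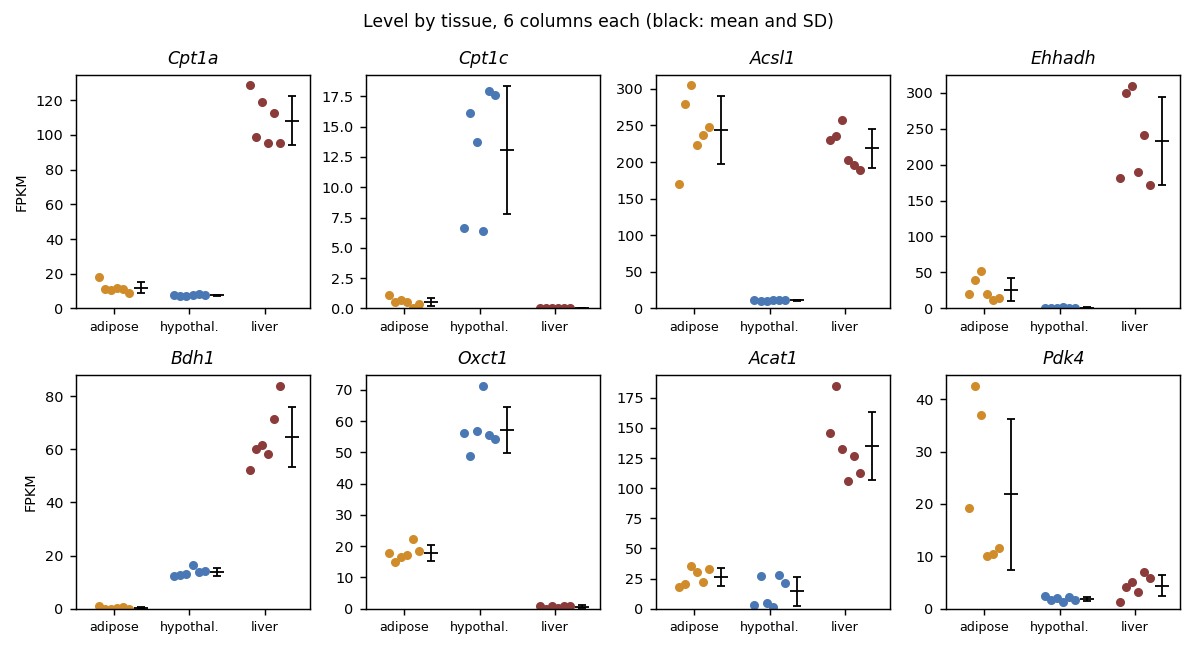
FPKM of 8 genes in the 6 columns of each tissue (points) with their mean and SD in black, on separate axes that start at 0. Bdh1 is highest in liver and Oxct1 in hypothalamus, Cpt1a is highest in liver and Cpt1c in hypothalamus, and Acat1 in hypothalamus falls into a low and a high set of 3 columns.

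The Bdh1 models that held the FPKM of liver and hypothalamus began at different sites. Starts here are those of the transcript models, and the ends of the RNA were not measured. In liver the models that start at position 31422297 held 99.3% to 100% of its FPKM in each of the 6 columns. In hypothalamus those that start at position 31428753 held 99.5% to 100%. The small level in adipose lay wholly in models of the downstream start. No column of either tissue mixed the starts beyond 0.586%. The upstream models were at 52.0 to 83.7 FPKM in liver and at most 0.0823 FPKM in hypothalamus. Bdh1 was the only gene of the 25 listed genes at 1 FPKM or more in both tissues whose leading start differed by more than 500 bases between liver and hypothalamus, beside 5.85% of all 7336 genes so compared. Between liver and adipose none of 24 listed genes did, beside 4.57% of all genes. The 2 stretches that precede these starts are those printed at the outset.

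**Figure D4:**
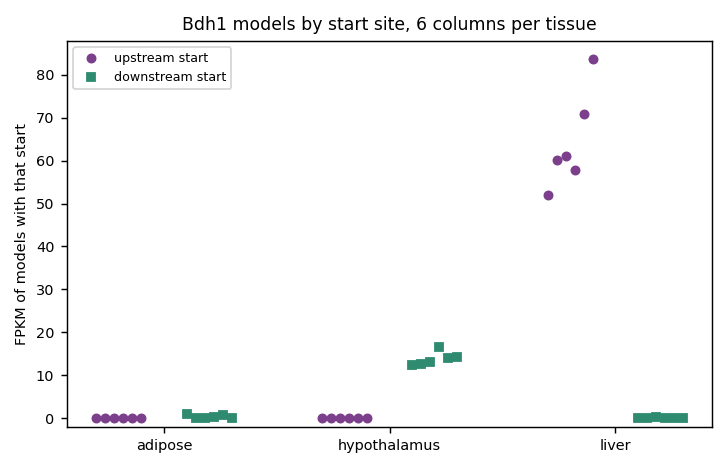
FPKM of Bdh1 models grouped by their start, for the 6 columns of each tissue, with circles for the upstream and squares for the downstream start. Liver points lie at 52.0 to 83.7 FPKM for the upstream start and near 0 for the downstream start, and hypothalamus shows the opposite.

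The 4 fasting-linked genes had the highest levels of the list and also some of the lowest. Cyp4a10 and Cyp4a14 are ω-hydroxylases of fatty acids and textbook targets of PPARα in liver. They are neighbours on chromosome 4 in a cluster of close paralogs, so reads may be shared. Some Cyp4a10 models of liver run on to position 115622645 over neighbouring genes. Others run past its RefSeq end, 115533649, to position 115579017, among them models with 17.2%, 11.8% and 3.02% of its liver FPKM. The model that stops at the RefSeq end held 63.8%, so the summed levels of Cyp4a10 include longer models. In liver columns 03, 13, 15, 25, 28 and 42, Cyp4a14 was at 1444, 1522, 1712, 929, 869 and 711 FPKM. Cyp4a10 was at 1332, 1302, 1302, 531, 760 and 545 FPKM in the same columns. Columns 03, 13 and 15 were the higher set for both genes. Because the values fell into separate sets of 3, no correlation over the 6 columns is given. The order was not particular to these genes. Columns 03, 13 and 15 also lay above columns 25, 28 and 42 for Acsl1, Cpt2, Acadl, Acadm, Acad11, Hadha and Hadhb. They did so too for Decr1, Eci1, Etfdh, Hsd17b4 and Acat1, but not for the rest of the list. The source of this order was not tested.

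Outside liver both were close to 0. Cyp4a14 was listed at 0 in all adipose columns and was at 0.238, 0, 0.708, 0, 0.376 and 2.27 FPKM in hypothalamus. Cyp4a10 was at 0.196 FPKM in adipose column 15 and at 0 in the other adipose columns, and at 0, 0, 0.445, 0.391, 0.491 and 1.61 FPKM in hypothalamus. Hypothalamus column 42 was the highest of these for both genes. The lowest liver column, 711 FPKM for Cyp4a14 and 531 FPKM for Cyp4a10, lay far above them. Over the 31 other genes, summed FPKM had a median of 2844 in liver, 923 in adipose and 311 in hypothalamus. With both included, the liver median was 5046.

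**Figure D5:**
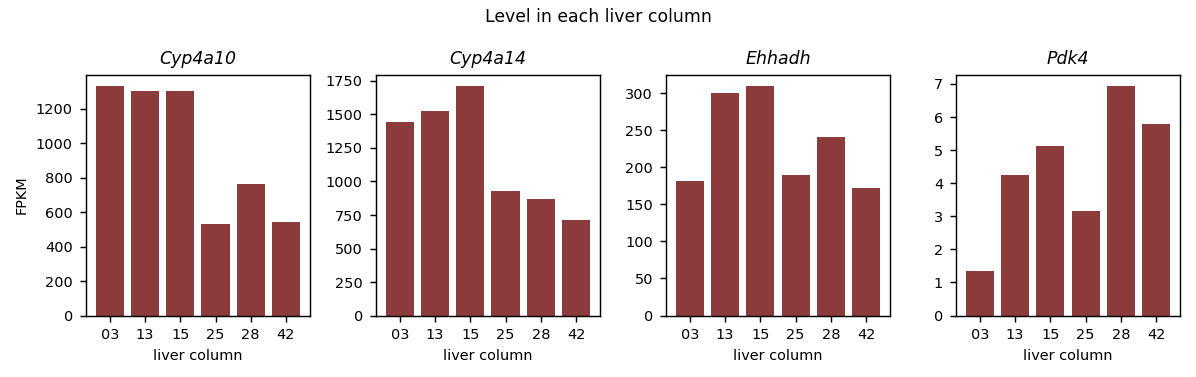
FPKM of Cyp4a10, Cyp4a14, Ehhadh and Pdk4 in each liver column, headed by its number, as bars from 0. Columns 03, 13 and 15 are the highest for Cyp4a10 and Cyp4a14, whereas Ehhadh is highest in 13 and 15 and Pdk4 in 28.

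Pdk4 and Fgf21, also known to rise with fasting in liver, did not share that pattern. Pdk4 encodes the kinase that shuts pyruvate dehydrogenase and so spares glucose. It was at 1.35, 4.25, 5.12, 3.15, 6.94 and 5.78 FPKM in liver, so that column 03 was the lowest for Pdk4 and among the highest for Cyp4a14. Adipose columns 03, 10, 15, 25, 41 and 42 held 19.2, 42.6, 37.0, 10.1, 10.4 and 11.6 FPKM, and hypothalamus held 2.49, 1.68, 1.99, 1.34, 2.29 and 1.58 FPKM. Adipose columns 10 and 15 were again the highest, as for Ehhadh. The same held for Acsl1, Slc25a20, Cpt2, Acad11, Hadhb, Etfdh, Eci2 and Hsd17b4, but not for others of the list, such as Acadl and Hadh. Unlike most of the list, Pdk4 was lower in liver than in adipose, by a log2 difference of -1.94 ± 0.35 (limma, adjusted p = 7.2e-05), and liver and hypothalamus overlapped.

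Fgf21, a hormone that liver secretes in fasting, was at 1.91, 3.68, 3.04, 1.48, 4.49 and 0.974 FPKM in liver. It was listed at 0 in all hypothalamus columns and reached 0.107 FPKM in adipose column 10. Its log2 levels and those of Pdk4 in liver had a Pearson r of 0.33 (exact permutation p = 0.55, adjusted p = 0.61) and a Spearman rho of 0.31 (exact permutation p = 0.56, adjusted p = 0.70), with r = 0.63 without columns 28 and 42.

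Of 10 pairs of genes of the same or a neighbouring role, 18 combinations of pair and tissue had both medians at 1 FPKM or more, and in 8 of them a gene's values fell into separate sets, so that no r was computed. None of the other 10 passed adjustment, and 2 had an unadjusted exact permutation p below 0.05 for Pearson r. Both were Acadm with Acadl, whose r was 0.98 in adipose (exact permutation p = 0.011, adjusted p = 0.083) and 0.91 in liver (exact permutation p = 0.017, adjusted p = 0.083). Spearman's rho was 0.89 in both (exact permutation p = 0.033, adjusted p = 0.17). Without the 2 columns farthest from the Acadm median, r was 0.83 in adipose and 0.81 in liver. Adipose column 03 was the lowest for both genes and had the lowest sum of adipocyte markers, 3853 FPKM. In liver both genes were higher in columns 03, 13 and 15 than in the other columns, as were further listed genes. Cpt1a and Pdk4 had r = 0.06 in adipose, 0.32 in hypothalamus and -0.40 in liver (exact permutation p = 0.86, 0.53 and 0.48). Without the 2 columns farthest from the Cpt1a median, the hypothalamus gave r = 0.55, adipose -0.96 and liver 0.70, so the values of the last 2 rest on the columns left out. Cpt2 and Slc25a20 had r = 0.70 in liver (exact permutation p = 0.072, adjusted p = 0.24), which became 0.06 without columns 25 and 42. They had r = -0.67 in hypothalamus (exact permutation p = 0.15, adjusted p = 0.25). Both genes of a pair come from the same columns, so they share library, depth, treatment and tissue make-up, and the part of these in r was not tested.

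Spread within a tissue was described for listed and other genes. For genes with a median of at least 1 FPKM, the median coefficient of variation over the 6 columns was 22.5% for listed and 25.7% for all genes in adipose, 10.7% and 12.3% in hypothalamus, and 17.6% and 18.6% in liver. Listed genes with a single model and with several models had medians of 23.3% and 21.1% in adipose, 5.53% and 16.7% in hypothalamus, and 16.4% and 19.3% in liver, so the order was not the same in every tissue.

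Other genes of the pathway were examined as a list of 67 genes, of which 61 were tested. In liver 31 were higher and 7 lower than in adipose, beside 12.8% and 22.9% of all genes. In liver 38 were higher and 7 lower than in hypothalamus, beside 13.1% and 48.4%. In adipose 20 were higher and 6 lower than in hypothalamus, beside 13.1% and 38.3%. The median differences of the 61 were 1.03, 2.07 and 0.55 on the log2 scale. These counts include genes that passed the filter through 1 tissue alone and so had to differ, among them Slc27a5 in liver and Acsl6 in hypothalamus. Counts without such genes were not made. Of 13 further peroxisomal genes, 10 were higher in liver than in hypothalamus and none lower. Of 16 further mitochondrial genes, 12 were higher and none lower in that comparison. Of 13 further genes of activation and transport, 5 were higher and 5 lower, the latter a smaller share than the 48.4% of all genes. Of 8 further ketone body genes, 3 were higher and 1 lower, with a median difference of 0.10 on the log2 scale. Of 11 further genes listed as PPARα targets, 8 were higher and 1 lower.

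Genes of large difference among these had roles in binding, uptake and activation. Fabp1, the liver fatty acid binding protein, was at 1592 to 2568 FPKM in liver and 0.890 to 2.98 FPKM in hypothalamus, with a log2 difference of 9.59 ± 0.21. Slc27a5, which activates bile acids and fatty acids in liver, was at 282 to 343 FPKM there and at most 0.316 FPKM in hypothalamus. Cd36, a fatty acid translocase of the cell surface, was at 295 to 539 FPKM in adipose and 0.459 to 0.839 FPKM in hypothalamus, a log2 difference of 7.83 ± 0.17. Acsl6, an acyl-CoA synthetase of brain, was at 44.5 to 57.3 FPKM in hypothalamus and listed at 0 in both other tissues.

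The start windows of the listed genes were searched on both strands for AGGTCANAGGTCA, the pair of half-sites, 1 base apart, that PPARα binds with its partner RXR, allowing 2 differences. Windows were present for 26 of the 33 genes, 29 windows in all. Matches lay in 3 of these (10.3%), against 3.86% of all 32851 windows. They were AGGTCACGGGTCC at Echs1, AGGTGAAAGGTCG at Slc25a20 and AGGACAGAGGTGA at Acox2. Of these genes, Echs1 and Slc25a20 were called higher in liver than in hypothalamus, as were 25 of the 29 listed genes tested, and Acox2 was not tested. Against adipose, Echs1 was not called. Acaa2, Cyp4a14, Cpt1b, Decr1, Cyp4a10, Hsd17b4 and Acat1 were not searched. A match is a string of letters and not a measured binding site.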

How the data were processed

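Poly-A selected RNA of 18 samples was sequenced, per the labels' protocols. HISAT 0.1.6 and StringTie 1.0.4 on mouse build mm10 are named in the submitters' processing notes. The annotation and the strandedness are not given in the sources used here. The authors deposited FPKM per transcript model and per gene, in 6 tables, with 6 columns per tissue. The 18 columns of a table type were grouped by the tissue in the heading and could not be matched to single samples. FPKM was summed over the models of a gene name. Tests used limma 3.58.1 in R 4.3.3 on log2(FPKM + 1), with 1 fit over all 18 columns, after a filter of 1 FPKM in at least 6 columns, and were tested on simulated data. Correlations used exact permutation of 6 columns, whose smallest p is 0.00278. No r was computed where the largest gap between sorted log2 values exceeded 0.5 of their range with at least 2 columns on each side, a rule set after the values were seen. Model starts within 500 bases were merged. All members are named, with values in every column for the gene of largest difference in each role and for 9 genes of interest. Members, lists and tests were chosen with earlier results of these data known. Cells that held dates in place of values, at most 13 in a table, were treated as missing and touched no listed gene. Alternatives tried were another pseudocount, no filter, scaling, the gene table, 2-tissue fits, a block on the heading number, no fold minimum and leaving out columns. Leaving out adipose columns 03, 10 and 41 together, and the comparison of model starts, were added after the data were seen.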

Additional observations from a re-analysis of the deposited data

Results flagged for a closer look

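In 81 sets of 6 columns with a median of at least 1 FPKM, 3 held a column whose gap to its nearest neighbour was too large a part of the range by Dixon's test, and chance flags about 1 in 20. Cpt1a in adipose column 03 was at 18.2 FPKM against 9.12 to 11.6 FPKM in the other adipose columns. Acaa1a in adipose column 15 was at 0.661 FPKM against 16.1 to 21.4 FPKM. Oxct1 in hypothalamus column 25 was at 71.2 FPKM against 48.9 to 56.8 FPKM.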

How the results depend on the processing

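Depth is unknown, each tissue has 6 columns of mixed treatment, and the tables may not share a normalization, so small differences between tissues rest on the scaling. The numbers of listed genes called stayed within 1.5 times their main values under every alternative run, except that 5 instead of 3 were lower in adipose than in hypothalamus with a pseudocount of 0.1. That pseudocount moved the median over all genes by -0.12 to -0.33, and quantile normalization moved it by 0.23 to 0.97. Leaving out each column in turn gave 20 to 22 genes higher in liver than in adipose, 25 to 26 against hypothalamus and 16 to 18 in adipose against hypothalamus. Quantile normalization left 14 higher in liver than in adipose, with Slc25a20 at 0.98, Acadm at 0.54, Decr1 at 0.87, Hsd17b4 at 0.95 and Acox3 at -0.85. Over all genes, upper-quartile scaling gave 2656 higher and 4100 lower in liver than in hypothalamus and 2829 and 2946 in adipose against hypothalamus. Quantile normalization gave 3084 and 3232, and 3108 and 2882. Without the fold minimum, 3014 were higher and 5558 lower in liver than in adipose, and 2803 higher in adipose than in hypothalamus. The cause was not tested beyond each setting's construction. Of the correlations, Cpt1a with Pdk4 changed sign in adipose, to -0.27 with upper-quartile scaling and to between -0.16 and 0.21 with a column left out, and in liver, to between -0.59 and 0.53. None passed adjustment in any setting. A replicate block on the heading number had a correlation of -0.02 and left the calls of listed genes at 21 and 3, 25 and 2, and 18 and 3. Same-numbered columns deviated together with correlations of only -0.03 to 0.04, and only 1, 2 and 2 columns in the 3 comparisons correlated best with their own number.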
